A study of Sus scrofa with 8 samples.

Results

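Early mature milk, taken at 7 and 14 days of lactation, was compared with late mature milk, taken at 21 and 28 days, through the small RNAs carried by porcine milk exosomes. The 4 mature milk libraries, of 8 in the series, were chosen by their stage alone and not by any measured value. All 4 came from the same Yorkshire sows after the second birth, and for each stage the RNA of 3 sows was pooled into 1 library, so no spread between sows can be seen within a stage, and p-values measure only the spread between stages. Exosomes were precipitated with ExoQuick (a polymer reagent that can also bring down other particles) from milk cleared of fat and cells by centrifugation and filtration. Small RNAs were gel-selected and sequenced on an Illumina Genome Analyzer. The files list each distinct read with its count, at 36 nt for 7 and 21 days and at 40 nt for 14 and 28 days. Each side therefore held 1 library of each read length, and 7 against 21 days and 14 against 28 days were compared at equal read length. The 3 libraries of 0 days, each from 1 sow, served as the measure of spread between libraries of single sows. With 1 library a sow, differences between sows and between library preparations cannot be told apart. The third of them stood apart from the others (miR-148a-3p was 0.0231% of its counts against 6.76% and 7.27% in the first and second), so its differences are given apart from those of the first and second. Its make-up also differed. Inserts of 16 to 26 nt were 77.1% of its reads, against 18.2% and 20.5% in the first and second. Tags with the leader sequences described below were 0.0673% of its kept counts, against 71.6% and 70.4%. Differences were taken over the 13 miRNAs, as shares of kept tags without a leader. Their median absolute log2 value was 0.046 between the first and second libraries and 0.878 between the first and the third. The first 2 thus give the narrower spread between libraries.

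MicroRNAs (miRNAs) are short RNAs, cut from hairpin precursors, that lower the output of messenger RNAs by pairing with them, mainly through the seed, the bases from position 2 to 8. In milk they travel partly inside exosomes, vesicles released by the mammary epithelium and by other cells, which shield them from digestion. Milk after the colostrum phase is called mature milk, and its nutrient composition is known to vary much less than across the change from colostrum. miR-148a-3p is the miRNA best known for its abundance in the milk of several mammals.

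Names were taken from the primer list that came with the study, which covers 13 miRNAs. A tag (a read after removal of the 3′ adaptor) was counted for one of these miRNAs when its first 20 nt matched. The sequences on which most results rest are shown as DNA, as in the primer list, with the seed in capitals.
miR-148a-3p: tCAGTGCActacagaactttgt
miR-30a-5p: tGTAAACAtcctcgactggaagc
miR-30c-5p: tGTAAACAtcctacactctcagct
miR-30d-5p: tGTAAACAtccccgactggaagc
miR-27b-3p: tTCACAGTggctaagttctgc
miR-200c-3p: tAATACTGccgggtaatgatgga
miR-375-3p: tTTGTTCGttcggctcgcgtga
miR-21-5p: tAGCTTATcagactgatgttgac
The 3 miR-30 members shared 1 seed, and each of the other 10 had a seed of its own.

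The libraries held 23984540 reads on day 7, 14590531 on day 14, 25074431 on day 21 and 28141425 on day 28. Few of these were usable inserts: inserts of 16 to 26 nt made up 4.59% and 6.48% of the reads at 7 and 21 days, and 19.1% and 15.2% at 14 and 28 days. After removal of tags with an unread base (N) and of tags with 10 counts or fewer, 699832 counts were kept on day 7, 1942382 on day 14, 1177336 on day 21 and 3189558 on day 28. The 7-day library was thus the shallowest, and its values carry the widest counting error. Counts of the 13 miRNAs differed between every pair of the 4 libraries by more than sampling noise (chi-square of at least 52.4 per degree of freedom), so no library was a copy of another.

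Much of every library was made of tags that began with 1 of 4 short sequences. Inserts of exactly 5 nt were 29.3% of the reads on day 7, 24.7% on day 14, 31.5% on day 21 and 24.6% on day 28. Of these, CGTGA was 33.9% to 35.7%. The insert AAGCT was 30.6% to 33%, TCAAG was 15.4% to 17.3%, and GATCT was 10.5% to 11.4%. These 4 sequences, which together were 93.8% to 94.9% of the 5-nt inserts, are called leaders here. Tags that started with a leader took 49.8% of the kept counts on day 7, 68.9% on day 14, 34.3% on day 21 and 58.1% on day 28. The share was lower in late milk in both read length pairs, but the groups overlapped, and the 40-nt library was the higher one on each side. The means were 59.3% ± 13.5 (SD, n = 2) in early and 46.2% ± 16.8 (SD, n = 2) in late milk (exact permutation test, two-sided, p = 0.667; 2 against 2 libraries cannot go below 0.333). The same remainder often followed several leaders, as in the most abundant example, shown with the leader in capitals.
Remainder after the first leader: CGTGAcctgtctgagcgtcgct
Remainder after the second leader: AAGCTcctgtctgagcgtcgct
The form with AAGCT was 2.01% of the kept counts on day 7, 2.32% on day 14, 1.36% on day 21 and 1.98% on day 28, whereas the remainder alone was at most 0.102%. Remainders seen after all 4 leaders held 77.5% to 84.8% of the counts of leader tags. Only 0.205% to 1.46% of these counts had a remainder that began like one of the 13 miRNAs. Because leader tags fill a different part of each library, the shares of miR-148a-3p, of miR-30a-5p and of the 13 miRNAs together are given both of all kept tags and of kept tags without a leader. For the other miRNAs the shares are of kept tags without a leader and the log2 ratios are given on both scales. Shares of single relatives and unnamed tags are instead of the counts of all units (groups of tags, defined below) without a leader, a larger total that includes copies of 10 counts or fewer. Removal of leader tags lowered each log2 ratio of late to early by 0.388 for 7 against 21 days and by 0.429 for 14 against 28 days. A share can be lower because an RNA was scarcer or because other RNAs were more abundant, and fewer cells of a type and less RNA per cell cannot be told apart in such libraries.

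**Figure D1:**
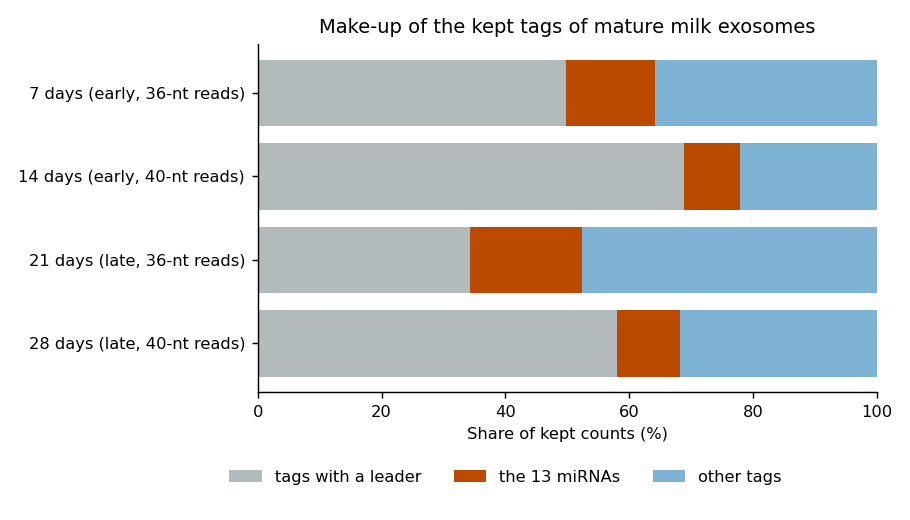
Make-up of the kept tags in each mature milk library, as the percent of kept counts (horizontal axis) in tags with a leader, in the 13 miRNAs and in all other tags. Leader tags fill 49.8% and 68.9% of the early libraries and 34.3% and 58.1% of the late ones, and the 36-nt libraries hold fewer of them than the 40-nt libraries.

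No RNA passed the test between early and late mature milk, which does not show that none differed. Tags were grouped into units, one for each of the 13 miRNAs and one for each other first 18 nt, and edgeR's quasi-likelihood test with read length as a term called 0 of 14020 units (0%) at an adjusted p under 0.05. The lowest adjusted p was 0.986, with 604 units at an unadjusted p under 0.05. DESeq2 also called 0 units, with 316 at an unadjusted p under 0.05. Of the units tested, 8586 began with a leader, and without them the edgeR test called 0 of 5426 units, with 81 at an unadjusted p under 0.05. The fit had 1 residual degree of freedom, and the common dispersion, a measure of the spread between libraries, was 0.252. Without the 28-day library, 222 of 14506 units passed, all higher in the remaining late library, and without the 21-day library 8 of 19025 did, again all higher in late milk. None of these calls began with a leader or was one of the 13 miRNAs. Both fits left 1 late library, assumed to vary like the early ones, and had no term for read length.

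All 13 miRNAs had a positive log2 ratio of late to early in that test, and none passed it (without the 21-day library, 10 of 13 were positive, with a median of 0.191 and a lowest value of -0.495). The ratios ran from 0.297 for miR-375-3p to 0.979 for miR-182-5p with a median of 0.82, and their adjusted p (edgeR) was 0.986 to 0.99. The median over all units tested was 0.069, that of units with a leader was -0.051 and that of units without one was 0.415. Scaled by library size alone, the median of the 13 was 0.458. In the fit without leader tags the 13 miRNAs had a median of 0.417, 12 of them were positive, and the lowest adjusted p was 0.999. These fits scale each library by a factor from its counts (TMM). In the main fit it was 0.7286 at 21 days and 1.068 to 1.204 at the other stages. As plain shares of kept tags without a leader, the medians were 0.071 for 21 against 7 days and -0.248 for 28 against 14 days. The positive median of the fit was thus not seen in the shares of both pairs.

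miR-148a-3p, which is known to act on DNA methyltransferases, was the most abundant unit of every mature milk library without leader tags, with 75969 counts on day 7, 110980 on day 14, 147679 on day 21 and 203658 on day 28. Of all kept tags it took 10.9% on day 7, 5.71% on day 14, 12.5% on day 21 and 6.39% on day 28. The 36-nt libraries were high and the 40-nt libraries low at both stages. The late library was the higher one in each pair, by a log2 ratio of 0.209 for 21 against 7 days and 0.16 for 28 against 14 days. Of kept tags without a leader it took 21.6% on day 7, 18.4% on day 14, 19.1% on day 21 and 15.2% on day 28. On this scale the late library was the lower one in each pair, by -0.18 and -0.268, with counting standard errors of 0.006 and 0.005. As a plain share, miR-148a-3p thus went up or down between early and late milk with the presence of leader tags in the total. The first 2 libraries of 0 days differed by 0.106 on the first scale and 0.046 on the second. The edgeR log2 ratio was 0.606 with a standard error of 0.62 (adjusted p = 0.986). It was 0.203 in the fit without leader tags, positive where the plain shares were lower in both pairs. With 1 library left out it was -0.263 without the 21-day library, 0.191 without the 14-day library, 1.082 without the 28-day library and 1.28 without the 7-day library.

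The 13 miRNAs together were 14.4% of all kept counts on day 7, 9.01% on day 14, 18.1% on day 21 and 10.1% on day 28. Of kept counts without a leader they were 28.7% on day 7, 29% on day 14, 27.5% on day 21 and 24.2% on day 28. On the second scale both late libraries lay below both early ones, with means of 28.8% ± 0.208 (SD, n = 2) and 25.9% ± 2.30 (SD, n = 2) and p = 0.333, the smallest that the exact permutation test can give here.

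Of all kept tags, 11 of the 13 miRNAs were higher in the late library of both pairs. The exceptions were miR-200c-3p and miR-375-3p, which were higher at 21 than at 7 days and lower at 28 than at 14 days. The median log2 ratio was 0.459 for 21 against 7 days and 0.181 for 28 against 14 days. Both late libraries lay above both early ones for the miR-30 members, miR-182-5p and let-7a-1-5p. That was 5 of 13, beside 6.55% of all 7324 units with at least 100 counts. Of those units 4494 began with a leader, and leader tags held a lower share in late milk in both pairs. The 6.55% is thus not a like background for the 13 miRNAs, and none of units without a leader is given on this scale. Of kept tags without a leader, 2 miRNAs (miR-21-5p and miR-30c-5p) were higher in the late library of both pairs, 3 (miR-148a-3p, miR-27b-3p and miR-574-3p) were lower in both, and 8 went opposite ways. The medians were then 0.071 and -0.248. Only miR-27b-3p kept the groups apart on this scale, lower in late milk, beside 14.5% of 2830 units that were lower and 7.28% that were higher without overlap.

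**Figure D2:**
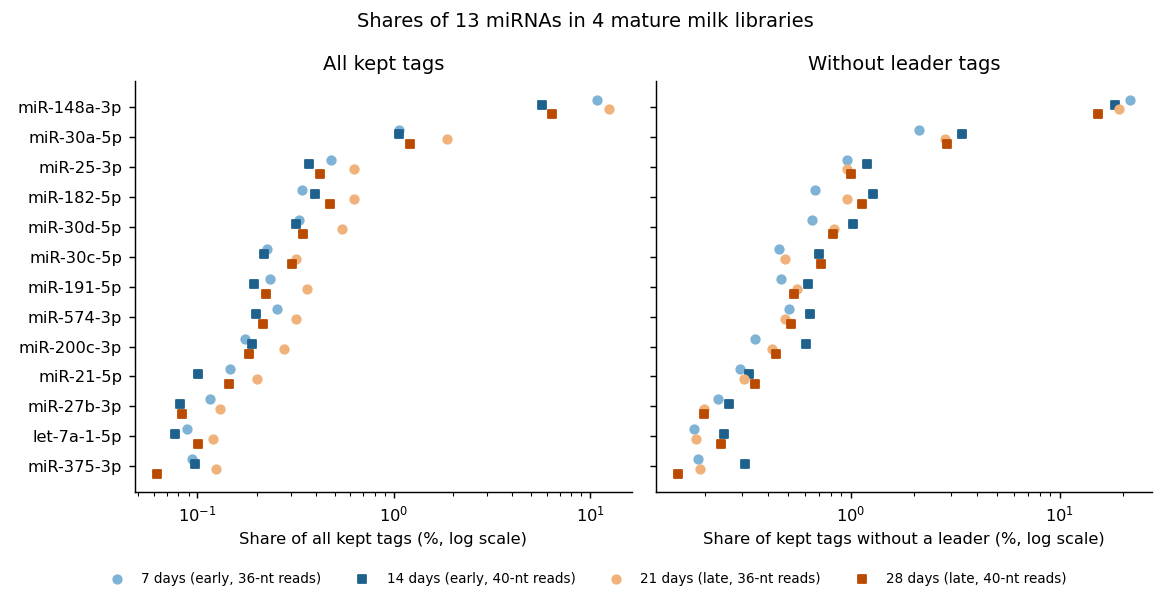
Share of each of the 13 miRNAs in the 4 mature milk libraries, in percent on a log scale, of all kept tags (left) and of kept tags without a leader (right); circles are 36-nt and squares 40-nt libraries. miR-148a-3p lies at 5.71% to 12.5% on the left and 15.2% to 21.6% on the right, and the 21-day library, highest for all 13 miRNAs on the left, lies near the others on the right.

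Among the 13 miRNAs, miR-30a-5p was second in abundance to miR-148a-3p, and its family is taken next. The family is best known for holding back autophagy and cell death genes and for its abundance in epithelia. miR-30a-5p took 1.06% of all kept counts at 7 and at 14 days, 1.86% at 21 days and 1.21% at 28 days. Without leader tags it took 2.11% on day 7, 3.39% on day 14, 2.83% on day 21 and 2.88% on day 28. The late libraries were then alike and lay between the early ones, with log2 ratios of 0.423 for 21 against 7 days and -0.236 for 28 against 14 days, whereas of all kept tags the ratios were 0.812 and 0.193. For miR-30d-5p the late libraries also lay between the early ones without leader tags, with log2 ratios of 0.354 and -0.309, against 0.742 and 0.12 of all kept tags. For both, the second ratio thus turned with the total. miR-30c-5p took 0.451% on day 7, 0.701% on day 14, 0.486% on day 21 and 0.721% on day 28 without leader tags, so it was arranged by read length and differed little between early and late milk (log2 ratios of 0.107 and 0.041, against 0.496 and 0.47 of all kept tags, where the groups did not overlap). All tags with the miR-30 seed made up 3.34% on day 7, 5.24% on day 14, 4.27% on day 21 and 4.59% on day 28.

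miR-27b-3p, known as a brake on the formation of fat cells, was 0.231% on day 7, 0.261% on day 14, 0.197% on day 21 and 0.199% on day 28 of kept tags without a leader. Its log2 ratios were -0.226 for 21 against 7 days and -0.391 for 28 against 14 days, with counting standard errors of 0.063 and 0.046. The first 2 libraries of 0 days differed by 0.003, but each differed from the third by more than these ratios (0.722 and 0.719), and the exact permutation p was 0.333, the smallest possible. Of all kept tags the ratios were 0.162 and 0.038, the opposite direction. miR-574-3p was 0.505% on day 7, 0.639% on day 14, 0.486% on day 21 and 0.516% on day 28 without leader tags, with log2 ratios of -0.056 and -0.307, and of all kept tags both turned to 0.333 and 0.121.

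miR-21-5p, a miRNA raised in many inflamed tissues, was 0.293% on day 7, 0.324% on day 14, 0.308% on day 21 and 0.346% on day 28 of kept tags without a leader. Its log2 ratios were 0.071 and 0.094, well under the 0.694 between the first 2 libraries of 0 days, where it was the most variable of the 13. let-7a-1-5p, which restrains growth genes such as those of the RAS family, was 0.177% on day 7, 0.248% on day 14, 0.182% on day 21 and 0.24% on day 28. Its ratios of 0.045 and -0.048 were smaller than their counting standard errors of 0.069 in the first pair and close to the 0.045 of the second. For both miRNAs the early and late libraries overlapped on this scale. With all kept tags as the total, the ratios were 0.459 and 0.523 for miR-21-5p, where the groups still overlapped, and 0.433 and 0.381 for let-7a-1-5p, where they did not.

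miR-200c-3p preserves the epithelial state by repressing ZEB transcription factors, and miR-375-3p is abundant in pancreatic islets and in several epithelia. miR-375-3p was 0.186% on day 7, 0.311% on day 14, 0.189% on day 21 and 0.149% on day 28 of kept tags without a leader. The 7- and 21-day libraries differed by 0.017 on the log2 scale, while 28 against 14 days gave -1.062 (counting standard error 0.046). This was the single ratio past 2-fold among the 13 miRNAs, and it was -0.988 as a share of the larger total of all units without a leader. Of the 2830 units without a leader and with at least 100 counts, 19.7% were lower and 24.6% higher by 2-fold or more in that pair. The ratios of miR-375-3p were 0.405 and -0.634 of all kept tags. miR-200c-3p was 0.347% on day 7, 0.609% on day 14, 0.42% on day 21 and 0.438% on day 28, with log2 ratios of 0.275 and -0.475, against 0.664 and -0.046 of all kept tags. Without leader tags both miRNAs were highest at 14 days, and for both the groups overlapped.

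miR-182-5p, a member of a cluster known from sensory cells and epithelia, was 0.675% on day 7, 1.28% on day 14, 0.953% on day 21 and 1.13% on day 28 without leader tags. miR-25-3p was 0.953% on day 7, 1.19% on day 14, 0.957% on day 21 and 1% on day 28. miR-191-5p was 0.463% on day 7, 0.625% on day 14, 0.551% on day 21 and 0.536% on day 28. For all 3 the 7-day library was the lowest, the 14-day library the highest, and the late libraries lay between them. The log2 ratios of miR-182-5p were 0.498 for 21 against 7 days and -0.184 for 28 against 14 days. For miR-191-5p they were 0.25 and -0.222, and for miR-25-3p 0.005 and -0.248. For each of the 3 the second ratio turned when taken of all kept tags, with 0.886 and 0.245 for miR-182-5p, 0.639 and 0.207 for miR-191-5p, and 0.393 and 0.181 for miR-25-3p. On that scale the early and late libraries did not overlap for miR-182-5p and overlapped for the others.

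**Figure D3:**
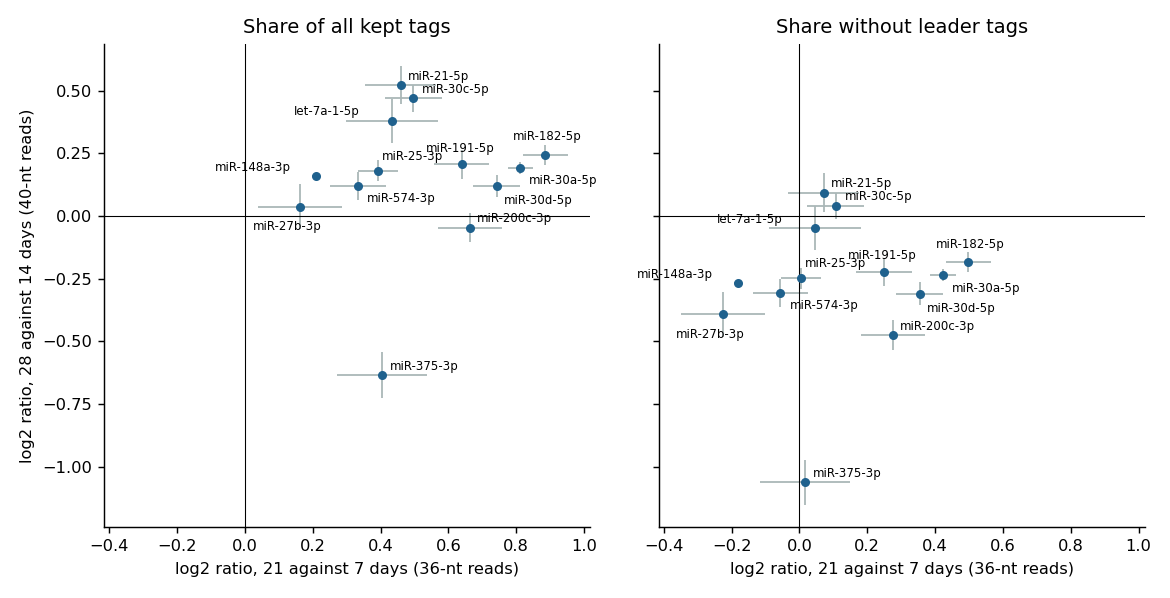
Log2 ratio of late to early for each of the 13 miRNAs at equal read length, 21 against 7 days (horizontal) and 28 against 14 days (vertical), as shares of all kept tags (left) and of kept tags without a leader (right); bars are 95% counting intervals and cover counting error only. On the left 11 points lie above 0 on both axes, and on the right the points straddle 0 on the horizontal axis and most lie below 0 on the vertical axis, with miR-375-3p at -1.062.

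The order of the miRNAs was much alike in all 4 libraries. Across the 13 miRNAs, Spearman's rho was 0.995 between 7 and 21 days and 0.973 between 14 and 28 days, and the 6 pairs of libraries ran from 0.956 to 0.995. These are descriptions over 13 points that share their libraries. Over the 984 units whose most abundant tag had 21 to 24 nt, rho was 0.774 between 7 and 21 days and 0.637 between 14 and 28 days. Over the 1642 units of 16 to 20 nt it was 0.436 and 0.335, and between 21 and 28 days it was -0.016. miR-148a-3p ranked first among units without a leader in all 4 libraries, and miR-30a-5p ranked sixth at 7 days and was the second unit in the others.

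Tags that shared a seed with one of the 13 miRNAs but not its first 20 nt were followed as relatives; they are printed without a name. There were 10 relatives with at least 1000 counts over the 4 libraries, and 5 of them carried the let-7a seed. The most abundant carried the miR-25 seed, and the one with the widest difference between early and late milk carried the let-7a seed and differed from let-7a-1-5p by G12A, counted from the 5′ end.
Relative with the miR-25 seed: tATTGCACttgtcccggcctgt
Relative with the let-7a seed: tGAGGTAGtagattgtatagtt
The first was 0.804% on day 7, 1.06% on day 14, 0.878% on day 21 and 0.834% on day 28 of tags without a leader, with log2 ratios of 0.127 and -0.348. The second was 0.0242% on day 7, 0.0368% on day 14, 0.039% on day 21 and 0.0712% on day 28. Its late libraries lay above its early ones, with log2 ratios of 0.682 and 0.95, and it rested on 95, 243, 321 and 991 counts. The libraries of 0 days held 0.0577%, 0.0463% and 0.124%, so the third was more than 2-fold above the others, a wider difference than either ratio of late to early. Of the 10 relatives, 2 were higher and 4 lower in the late library of both pairs, and 4 went opposite ways. None was past 2-fold in either pair. All tags with the miR-148a seed were 22.2% on day 7, 18.8% on day 14, 19.4% on day 21 and 15.5% on day 28, close to miR-148a-3p alone.

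The ends of the miRNAs were compared through tags of any count that held bases 3 to 20 of the miRNA. miR-148a-3p was almost uniform: 99.6% of its tags with the listed 5′ end were the exact 22-nt sequence at 7, 21 and 28 days and 99.5% at 14 days. miR-182-5p was exact in 43.1% of such tags on day 7, 58.4% on day 14, 56.8% on day 21 and 57.3% on day 28. The 7-day library was the low one, with 54.5% of miR-182-5p tags shortened at the 3′ end against 36.2% to 38.7% in the others. miR-30c-5p was shortened in 63.6% of tags on day 7, 53.3% on day 14, 53% on day 21 and 51.8% on day 28. Over the 13 miRNAs, the median share with an extended 3′ end was 3.14% on day 7, 5.39% on day 14, 5.82% on day 21 and 7.55% on day 28. It was higher at 21 than at 7 days for 12 of 13 miRNAs but higher at 28 than at 14 days for 7 of 13. Across read lengths, it was lower at 7 than at 14 days for 13 of 13 and lower at 21 than at 28 days for 11 of 13. Tags of miR-21-5p that started 1 nt upstream were also ordered by read length, with 1.91% and 2.39% at 7 and 21 days and 8.67% and 9.49% at 14 and 28 days.

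Tag lengths had their peak at 22 nt in every library. Without leader tags, 22 nt held 32.5% of counts on day 7, 33.1% on day 14, 29.7% on day 21 and 28.6% on day 28. Both late libraries lay below both early ones, with a difference of -3.66 percentage points between the means (exact permutation p = 0.333, the smallest possible). Of all kept tags, 22 nt held 24.3% on day 7, 21.5% on day 14, 25.4% on day 21 and 21.2% on day 28, so the groups overlapped and the difference turned to 0.358. Without leader tags, those of 16 to 20 nt were 51.4% on day 7, 29.9% on day 14, 48.1% on day 21 and 41.9% on day 28, so they were fewer at 21 than at 7 days and more numerous at 28 than at 14 days. Tags of 25 and 26 nt were 0.786% on day 7, 6.61% on day 14, 2.78% on day 21 and 5.65% on day 28. In neither length class were the early and late libraries apart. As shares of all kept tags, those of 25 and 26 nt were 1.31% on day 7, 8.16% on day 14, 3.91% on day 21 and 9.27% on day 28, higher in the late library of both pairs.

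**Figure D4:**
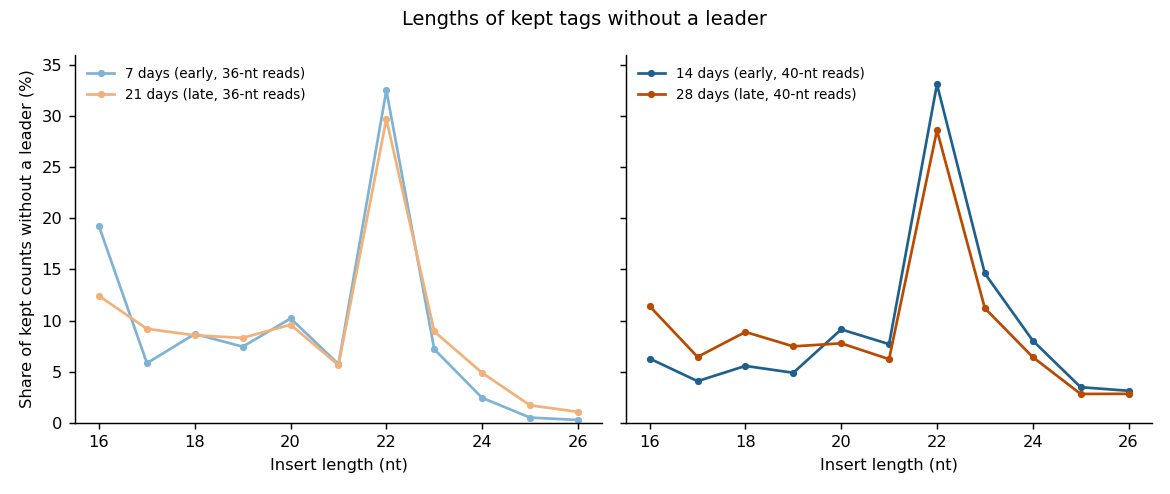
Share of kept counts without a leader (percent, vertical axis) at each insert length from 16 to 26 nt, for 7 and 21 days (left) and for 14 and 28 days (right). The 22-nt peak is lower in the late library of each pair, at 29.7% against 32.5% and at 28.6% against 33.1%, while 16-nt tags are fewer at 21 than at 7 days and more numerous at 28 than at 14 days.

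The number of kinds of tag was compared at equal depth. At 1057888 counts of 16 to 26 nt, the number in the shallowest library, the expected kinds with more than 10 counts were 8144 on day 7, 8207 on day 14, 7440 on day 21 and 8353 on day 28. Tags without a leader, brought to 484541 counts of such tags, gave 3158 kinds on day 7, 3719 on day 14, 2981 on day 21 and 3727 on day 28. The 40-nt library held more kinds than the 36-nt library on each side in both counts, and early and late milk overlapped in both.

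Outside the 13 miRNAs, units without a leader that were past 2-fold in both read length pairs more often went opposite ways than the same way, and most of these were units of 16 to 20 nt. Among the 2830 units without a leader and with at least 100 counts, 17.1% were higher and 30.7% lower by 2-fold or more at 21 than at 7 days, and 24.6% were higher and 19.7% lower at 28 than at 14 days. Those higher in both pairs were 73 (2.58%), those lower in both made up 5.05%, and 539 were past 2-fold in opposite directions. How many units count as higher or lower depends on the total. On the total without leader tags used here, the median log2 ratios of these units were -0.385 and -0.327. In the main edgeR fit, which included leader tags, the tested units without a leader had a median of 0.415. Of the 1642 units of 16 to 20 nt, 58 were higher and 94 lower in both pairs and 461 went opposite ways. Those of 21 to 24 nt were nearly even, with 11 higher and 45 lower in both and 65 opposite. Of the 4494 units with a leader and at least 100 counts, few were past 2-fold in both pairs. Among those few, 35 were higher and 14 lower in both and 8 went opposite ways. Units of 16 to 20 nt were past 2-fold more often (59.1% and 57% in the pairs) than units of 21 to 24 nt (31.5% and 29.9%) or of 25 and 26 nt (36.8% and 13.7%), and none of the 13 miRNAs was, in either pair, on this count of units. Units of short tags were also the most variable between the first 2 libraries of 0 days. There 24.7% of units of 16 to 20 nt, 7.93% of 21 to 24 nt and 2.94% of 25 and 26 nt were past 2-fold. Over all 2830 units, 17.3% were past 2-fold between these libraries. Within early milk (7 against 14 days) 51.1% were, and within late milk (21 against 28 days) 66.3% were, both across read lengths and both above the 47.8% and 44.3% of the pairs of early and late milk. For units of 16 to 20 nt this order did not hold within early milk, where 46.8% were past 2-fold, fewer than in either pair, while 71.1% were within late milk. Units with a leader were steadier, with 18.6% and 2.96% past 2-fold in the pairs as shares of their own total.

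**Figure D5:**
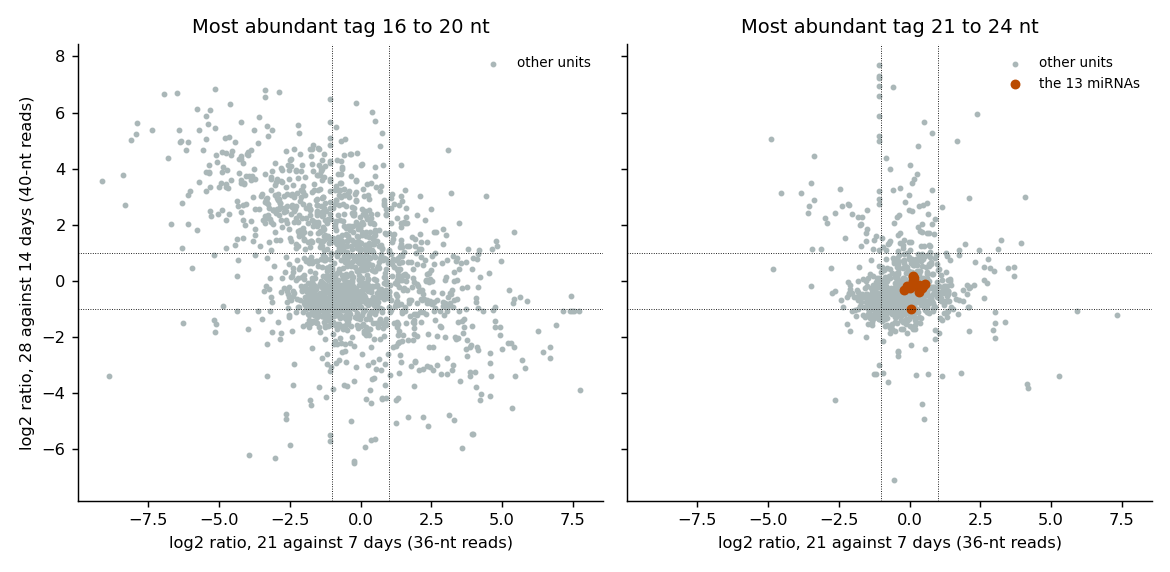
Log2 ratio of late to early for units without a leader and with at least 100 counts over the 4 libraries, 21 against 7 days (horizontal) and 28 against 14 days (vertical), for units of 16 to 20 nt (left) and of 21 to 24 nt (right, with the 13 miRNAs in orange); dotted lines mark 2-fold. Units of 16 to 20 nt spread widely along the falling diagonal, and the 13 miRNAs lie inside the dotted lines.

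The most abundant units that were past 2-fold the same way in both pairs are shown by their leading tag; they were chosen after their values were seen, are unnamed because no list of pig small RNAs was used here, and none passed the edgeR test (adjusted p = 0.986 for each). Of the 6 with at least 4000 counts, 5 were lower and 1 was higher in late milk. The 23-nt tag and the higher one are given first, followed by a 16-nt tag that ends, rather than begins, with a leader (in none are capitals used).
23-nt tag, lower in late milk: agttggtccgaaggctgtgggtt
19-nt tag, higher in late milk: aacgagaactttgaaggcc
16-nt tag, lower in late milk: gacgaggtggccgtga
The 23-nt tag was 0.614% on day 7, 0.694% on day 14, 0.244% on day 21 and 0.252% on day 28 of tags without a leader. The early libraries were alike, the late ones were alike, and the groups lay well apart, with log2 ratios of -1.333 and -1.459. The first 2 libraries of 0 days held 0.195% and 0.259%, close to late milk, and the third held 0.794%, above early milk. Its edgeR log2 ratio was -0.635 with a standard error of 0.415.

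The 19-nt tag was 0.0981% on day 7, 0.0606% on day 14, 0.502% on day 21 and 0.159% on day 28, with log2 ratios of 2.352 and 1.391. Its edgeR log2 ratio was 2.634 with a standard error of 0.536. The 21-day library was the highest and the early libraries were the lowest. The 16-nt tag was 3.64% on day 7, 0.279% on day 14, 0.631% on day 21 and 0.12% on day 28, so the late library was lower in each pair while the groups overlapped. It differed by 5.21 on the log2 scale between the first 2 libraries of 0 days, more than between early and late milk. Tags that ended in a leader but did not begin with one were 4.83% of kept counts on day 7, 0.849% on day 14, 2.3% on day 21 and 0.762% on day 28.

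Some 21- to 24-nt tags set 1 library apart from the other mature milk libraries. Units of any length at least 8-fold above each of the other 3 libraries, with at least 1000 counts, numbered 1 of 49 on day 7, 1 of 76 on day 14, 11 of 107 on day 21 and 18 of 176 on day 28, where the totals are the units without a leader with that many counts in the library. A floor of 1000 counts is 0.255% of the counts of units without a leader on day 7 but 0.0718% on day 28, so it admits rarer units on day 28. How far the numbers follow depth was not tested. Of the units set apart, 0, 0, 1 and 4 had 21 to 24 nt, and the 4 of the 28-day library held 2.02% of its counts without a leader. Their leading tags are shown with bases 2 to 8 in capitals; they too were chosen for their values and are not named.
Most abundant: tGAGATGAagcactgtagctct
Next: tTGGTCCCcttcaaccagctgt
The same with 1 more base at the 5′ end: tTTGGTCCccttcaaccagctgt
The fourth: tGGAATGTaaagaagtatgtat
Of tags without a leader, the first was 0.118% on day 7, 0.115% on day 14, 0.142% on day 21 and 1.62% on day 28. The second was 0.0079% on day 7, 0.0056% on day 14, 0.00984% on day 21 and 0.16% on day 28. The third was 0.00178% on day 7, 0.00333% on day 14, 0.00607% on day 21 and 0.109% on day 28. The last was 0.00968% on day 7, 0.00348% on day 14, 0.0168% on day 21 and 0.138% on day 28. All 4 were far higher on day 28 than in the other libraries, which is how they were chosen, and the 21-day library lay above both early ones by a much smaller margin. For the third, the log2 ratio of 21 against 7 days was 1.683, past 2-fold but resting on 50 and 7 counts. Its ratio of 4.994 for 28 against 14 days was set past 8-fold by the choice itself.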

How the data were processed

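The deposited files hold whole-number counts of distinct reads per library, adaptor included; per the labels the reads are single-end. Of the authors' later steps only the removal of tags with 10 counts or fewer was applied here; their mapping and other filters were not. The 3′ adaptor was found by its first 8 nt, which follow miR-148a-3p in every library, and inserts of 16 to 26 nt without N and with more than 10 counts were kept. Log2 ratios use a pseudocount of 0.5. Units were tested with edgeR 4.0.16 (quasi-likelihood, filterByExpr, TMM, read length and group, Benjamini-Hochberg) and with DESeq2 1.42.0 as an alternative; single values used exact permutation tests. Counting intervals cover counting error only. The miRNAs, lists and tests were chosen with earlier results of these data known. No pig miRNA table was used here, so the 13 miRNAs of the primer list alone were named. Markers of leukocytes, red blood cells, liver, muscle and stroma could not be matched, and of the epithelial markers miR-200c-3p and miR-375-3p alone could. The study states 36-nt reads, whereas the files of 14 and 28 days hold 40-nt reads. A unit was used when at least 1 of its tags had more than 10 counts in a mature milk library. It then sums all tags with its start, of any count, and unit shares are of the total of such counts without a leader. No genome was used, so no positions are given.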

Additional observations from a re-analysis of the deposited data

Results flagged for a closer look

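On the scale given with it, each value here went one way between early and late milk in the 36-nt libraries (7 and 21 days) and the opposite way in the 40-nt libraries (14 and 28 days); with 1 library a stage, the difference between the pairs was not tested. As log2 ratios of late to early in kept tags without a leader, miR-182-5p had 0.498 in the 36-nt pair and -0.184 in the 40-nt pair, and miR-191-5p had 0.250 and -0.222. miR-200c-3p had 0.275 and -0.475, miR-30a-5p had 0.423 and -0.236, and miR-30d-5p had 0.354 and -0.309. In all 10 ratios the 95% counting interval left out 0. The opposite directions depended on the total: of all kept tags miR-182-5p (0.886 and 0.245), miR-191-5p (0.639 and 0.207), miR-30a-5p (0.812 and 0.193) and miR-30d-5p (0.742 and 0.120) were higher in the late library of both pairs, and of these miRNAs only miR-200c-3p still went opposite ways, with 0.664 and -0.046.

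Tag lengths did the same. Among all kept tags, late minus early was -6.72 percentage points in the 36-nt pair and 4.22 in the 40-nt pair for tags of 16 to 20 nt, and 4.13 and -5.33 for tags of 21 to 24 nt. Without leader tags it was -3.29 and 12.0 for tags of 16 to 20 nt, 1.29 and -11.0 for tags of 21 to 24 nt, and 1.99 and -0.963 for tags of 25 and 26 nt. Among all kept tags the share of 25 and 26 nt was instead higher in the late library of both pairs, with 1.31% and 3.91% at 7 and 21 days and 8.16% and 9.27% at 14 and 28 days.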

How the results depend on the processing

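The read length term, the normalization, the filter on low counts, DESeq2 and the other libraries of the series left the count of units that passed at 0, whereas leaving out 1 library gave 0 to 222, the highest without the 28-day library and 8 without the 21-day library. The log2 ratio of late to early of miR-148a-3p, from mean shares of all kept tags, was 0.192; it was -0.220 without leader tags, -0.068 as a share of the 13 miRNAs, and -0.376 (without the 21-day library) to 0.728 (without the 7-day library) when 1 library was left out, with -0.198 without the 14-day library. The share of the 13 miRNAs had a log2 ratio of 0.269, and -0.156 without leader tags; leaving out 1 library gave -0.206 (without the 21-day library) to 0.646 (without the 7-day library), with -0.029 without the 14-day library. With miR-148a-3p set aside, the mean share of 11 of 12 miRNAs was greater in late milk, against 4 without leader tags and 8 to 12 when 1 library was left out. The 22-nt share, 0.358 percentage points higher in late milk, became -3.663 without leader tags, -3.298 among miRNA tags, -0.584 among tags of more than 100 counts, and 1.174 among tags of any count. The mean rho of 0.971 between libraries across the 13 miRNAs became 0.989 as Pearson's r of log2 values, 0.653 over all units and 0.448 over units without a leader. The causes were not tested. None of the 13 miRNAs was past 2-fold in both pairs under any of the 10 alternatives, and all 13 were detected in each library after thinning. The 7-day depth limits the rarest miRNA there, let-7a-1-5p, to 621 counts.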

Other observations

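The tags printed for their differences in mature milk were also read in libraries outside the comparison. The 23-nt tag that was lower in late milk held 0.122% of tags without a leader at 3 days and 0.794% in the third library of 0 days. The 16-nt tag that ends in a leader held 7.62% at 3 days, above every mature milk library. The most abundant of the tags that set the 28-day library apart held 0.403% at 3 days and 0.167% and 0.125% in the first and second libraries of 0 days, all below its 1.62% at 28 days.

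In the third library of 0 days, where miR-148a-3p was scarce (3151 tags of any count), 98.7% of its tags with the listed 5′ end had the exact sequence. miR-30a-5p was exact in 34.3% of such tags there, beside 53% to 57.3% in mature milk.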
